A study of Mus musculus with 4 samples.

Results

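The genes described here are 55 genes whose RNA is made mainly in S phase or in G2 and M phase of the cell cycle, a list of 27 S phase and 28 G2 and M phase genes taken out of the 26286 genes of the count table. The rule lists them by name and uses no value measured here, and each was matched by its symbol to its Entrez identifier. All 55 were found and all 55 passed the filter on low counts. RNA was sequenced from LSK cells of mouse bone marrow (strain C57BL/6), the lineage-negative cells that carry Sca-1 and Kit and hold blood stem cells and multipotent progenitors. The series has 4 libraries, 2 labelled Hhex-deleted and 2 wild-type, and its title ties Hhex, a homeobox transcription factor, to repression of Cdkn2a. The sources used here do not give the allele, how the deletion was made, the age of the mice or whether each library came from its own mouse. The p-values reflect the spread among these 4 libraries, which for the wild-type pair may be technical.

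A cell that commits to divide first loads the Mcm helicase on replication origins, then copies its DNA in S phase and then builds a spindle and parts its chromosomes in M phase. E2F transcription factors switch on the S phase genes once cyclin D kinases have inactivated the retinoblastoma proteins, and the G2 and M phase genes follow under complexes that bind the cell cycle homology region of their promoters. The Ink4 proteins, which are among the products of Cdkn2a and Cdkn2b, inhibit the cyclin D kinases and so stand upstream of both sets. Long-term blood stem cells are mostly quiescent, whereas many multipotent progenitors cycle. The comparison asks how closely these data bound any difference in the proliferation genes between libraries in which the Ink4 genes differ.

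Total counts lay between 27871827 and 29501591 per library. Levels are given as CPM, the count of a gene scaled to a common library total with TMM factors, so each value is relative to the rest of its library. Hhex itself was higher where the label says it was deleted, at 179 and 188 CPM, than in wild-type, at 127 and 115 CPM (edgeR adjusted p = 0.0271). A gene-level count does not show which exons were read, and the deleted part is not named in the labels, so this count does not check the deletion. Groups and directions are named by the labels throughout. Cdkn2a, which the title places under repression by Hhex, was higher in the same libraries, with values given at the end. Sex-linked transcripts set labelled Hhex-deleted replicate 1 apart, with 2662 CPM of Xist against 1.89 to 2.66 CPM in the other 3 libraries, and 0.343 CPM of the Y-linked Ddx3y against 124 to 138 CPM. The pair labelled Hhex-deleted therefore differs in sex and holds RNA of different animals, and fold changes are also given without replicate 1. Of the gate genes, Kit stood at 566 to 698 CPM and Ly6a, which encodes Sca-1, at 20.7 to 42.5 CPM. Lineage antigens that define mature cells were near the floor for Cd3e, Cd3g, Cd8a, Ly6g and Ms4a1 (at most 0.73 CPM), whereas Itgam stood at 53.0 to 97.2 CPM. Markers of other cell types moved with the groups. The 6 granulocyte monocyte progenitor markers, of which 2 fell, summed to 12171 and 8675 CPM against 17281 and 21167 CPM. Most of that sum was Mpo, which was not called, with 8748 and 5846 CPM against 11153 and 13052 CPM. The 6 lymphoid progenitor markers, of which 5 rose, summed to 841 and 1315 against 447 and 439.9 CPM. Flt3, the one not called, had 282 and 506 CPM against 301 and 276 CPM. The 6 mast cell and basophil markers, of which 5 rose, summed to 1316 and 1181 against 448 and 386 CPM. Of the erythroid, megakaryocyte, mature neutrophil and stem cell marker lists, 0 genes were called, and of 5 macrophage markers 3 rose and 1 fell. The part of these markers in the levels of the cell cycle genes was not tested. In such bulk libraries, fewer cycling cells and less RNA per cycling cell cannot be told apart.

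The promoters of 4 of these genes are shown to let the letters that such factors are known to bind be seen beside the values. They belong to the gene of each set with the smallest unadjusted p and to the gene with the highest level, among the 46 of the 55 genes that have a RefSeq promoter in build GRCm38.p6. Each sequence is the 250 bases before the annotated start, 5′ to 3′ on the gene's own strand. Capitals mark matches, on either strand, to the E2F motif TTCGCGC, its first variant TTGGCGC and its second variant TTCCCGC. They also mark the cell cycle homology region, searched as TTTGAA and as its variant TTCGAA, and the CCAAT box, which the factor NF-Y binds. Rrm2 (chr12:24708004-24708253, plus strand), Mcm6 (chr1:128359706-128359955, minus strand), Cdca8 (chr4:124936918-124937167, minus strand) and Mki67 (chr7:135716380-135716629, minus strand) read as follows.
Rrm2: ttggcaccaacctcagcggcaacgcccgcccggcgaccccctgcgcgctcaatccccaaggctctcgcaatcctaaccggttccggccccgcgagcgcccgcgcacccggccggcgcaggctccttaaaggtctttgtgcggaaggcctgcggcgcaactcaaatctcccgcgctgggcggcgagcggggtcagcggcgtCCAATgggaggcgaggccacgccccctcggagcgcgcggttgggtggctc
Mcm6: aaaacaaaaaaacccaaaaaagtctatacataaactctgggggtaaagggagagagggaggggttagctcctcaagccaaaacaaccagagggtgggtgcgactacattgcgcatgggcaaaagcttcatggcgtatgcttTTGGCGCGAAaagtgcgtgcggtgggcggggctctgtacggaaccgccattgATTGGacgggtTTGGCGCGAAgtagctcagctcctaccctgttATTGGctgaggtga
Cdca8: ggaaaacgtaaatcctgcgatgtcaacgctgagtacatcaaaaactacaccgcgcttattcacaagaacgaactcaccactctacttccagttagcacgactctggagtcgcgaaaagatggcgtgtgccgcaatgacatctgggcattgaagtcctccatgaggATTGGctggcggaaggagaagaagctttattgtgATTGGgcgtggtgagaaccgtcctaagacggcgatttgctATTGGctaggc
Mki67: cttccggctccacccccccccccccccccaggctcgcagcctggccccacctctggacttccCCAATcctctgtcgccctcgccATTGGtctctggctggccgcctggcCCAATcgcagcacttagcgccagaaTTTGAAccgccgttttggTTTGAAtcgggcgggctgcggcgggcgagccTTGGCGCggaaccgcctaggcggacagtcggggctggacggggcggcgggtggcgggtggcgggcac

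The Mcm6 promoter holds 2 stretches that read as an E2F motif on both strands at once, together with 2 CCAAT boxes. The Mki67 promoter holds 1 E2F motif, 2 cell cycle homology matches and 3 CCAAT boxes, and that of Cdca8 holds 3 CCAAT boxes. In Rrm2 only 1 CCAAT box was found with these letters. Over the sets, an E2F motif was present in 8 of 22 S phase promoters and in 4 of 24 G2 and M phase promoters, against 12% of the promoters of tested genes and 6.79% of all promoters. The cell cycle homology region was present in 4 of 22 and in 9 of 24, against 12.7% and 17.4%. A CCAAT box was present in 13 of 22 and in 19 of 24, against 36.5% and 34.5%. A match is a description of letters and not a measured binding site. No promoter is shown for Mcm4, Gins2, Rfc2, Pole, Ccne2, Ccna2, Aurkb, Kif20a and Tpx2.

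**Figure D1:**
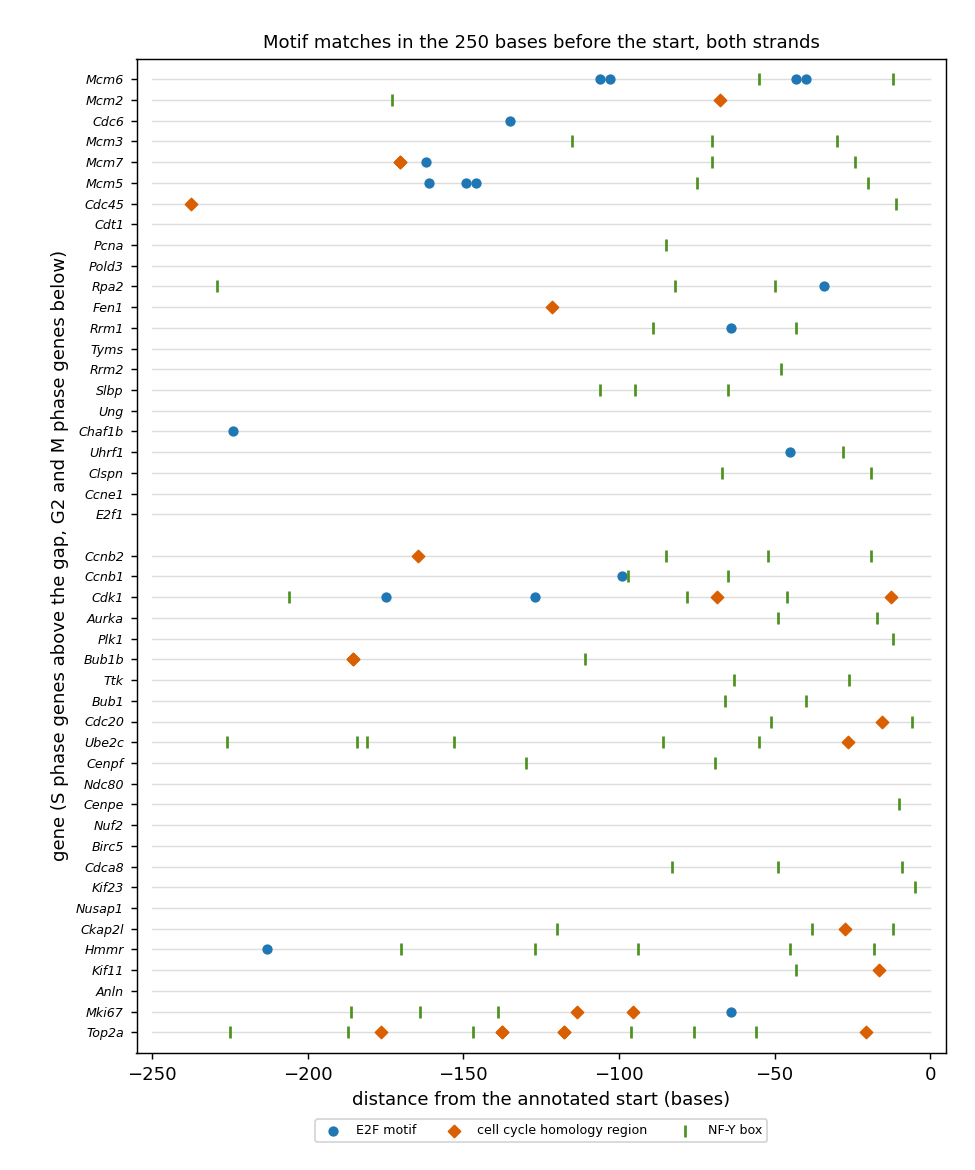
Each row is the promoter of 1 cell cycle gene and each symbol the centre of 1 motif match, on either strand, by its distance in bases from the annotated start. E2F matches lie in 8 of the 22 S phase rows above the gap, and cell cycle homology matches in 9 of the 24 G2 and M phase rows below it.

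No difference was called for any of the 55 genes. edgeR's quasi-likelihood test called 0 of 27 S phase genes and 0 of 28 G2 and M phase genes at an adjusted p of 0.05, whereas 2.6% of all 14912 tested genes were called, and 2.47% of those with a mean of at least 20 CPM. At an unadjusted p under 0.05 edgeR also gave 0 of the 55, against 15.8% of tested genes, and DESeq2 and limma-voom also called 0, with 0 at an unadjusted p under 0.05. The smallest adjusted p of the list was 0.358. Log2 fold changes ran from -0.23 to 0.16, with a median of 0.04 for S phase genes, -0.04 for G2 and M phase genes and -0.01 for all tested genes. Groups did not overlap in 20 of the 55 genes, 36.4%, of which 11 had both labelled Hhex-deleted libraries above wild-type and 9 had both below. Among all tested genes 45.5% did not overlap, 21.9% with the libraries above and 23.7% below.

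Before any division by gene length, mean counts over the 4 libraries ran from 21.8 CPM for Ccne1 to 903 CPM for Mki67. Per kilobase of gene length, which allows genes to be compared, Mcm6 was highest with 232 CPM per kilobase, followed by Top2a with 167 and Rfc2 with 166, and Ccne1 was lowest with 11.1. Together the 55 genes held 1.04% to 1.1% of the tested counts of each library.

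**Figure D2:**
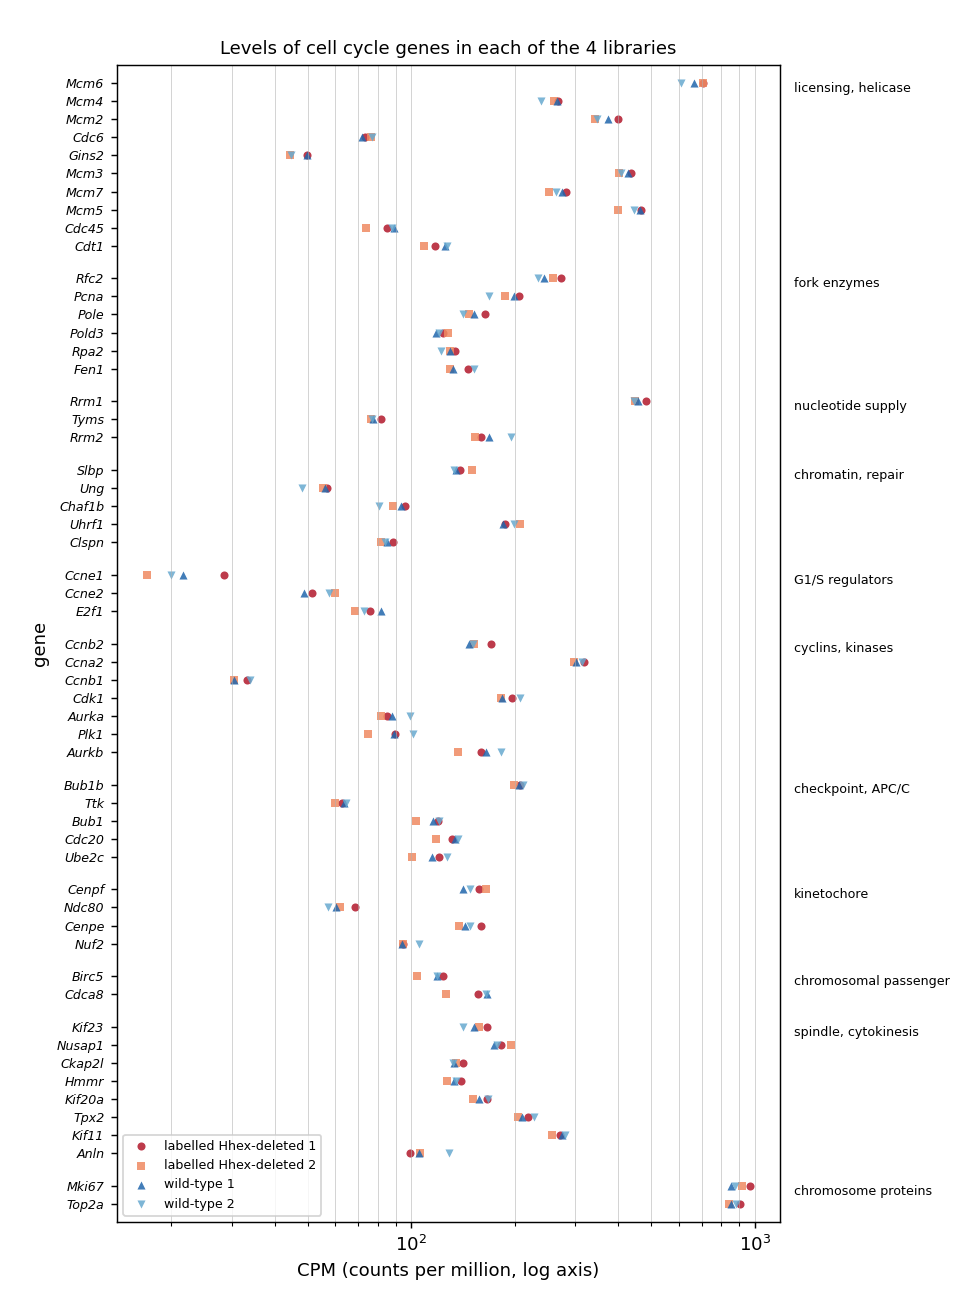
Points give the CPM (log axis) of each cell cycle gene in each of the 4 libraries, with genes in rows by role. The libraries labelled Hhex-deleted (red and orange) overlap the wild-type libraries (blue) in 35 rows, and Ccne1 has the widest spread, from 17.0 to 28.5 CPM.

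Among the genes that license origins and form the replicative helicase, Mcm6, a subunit of the Mcm ring (Entrez 17219), had 708 and 706 CPM where wild-type had 667 and 610.5 CPM. Both labelled Hhex-deleted libraries were higher, by a log2 fold change of 0.15 ± 0.08 (SE; adjusted p = 0.468, edgeR). Cdt1, which loads the ring on origins, stood at 117 and 109 CPM against 125 and 127 CPM, with both lower (-0.16 ± 0.08, adjusted p = 0.42). Cdc45, a partner of the active helicase, was placed the same way, with 85.2 and 73.6 CPM against 89.0 and 87.8 CPM. The other 7 genes of this role overlapped between groups, with log2 fold changes from -0.07 for Mcm5 to 0.06 for Mcm4. Of the fork enzymes, Rfc2, a subunit of the clamp loader, had 272 and 258 CPM against 244 and 234 CPM. Pold3, a subunit of DNA polymerase delta, had 124 and 128 CPM against 118 and 120.2 CPM, so that both genes were higher in both libraries, by 0.15 and 0.08 on the log2 scale. Pcna, the sliding clamp, overlapped, with 206 and 187 CPM against 199 and 168 CPM, as did Pole, Rpa2 and Fen1.

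The genes of nucleotide supply parted in sign without passing the test. Rrm2, the subunit of ribonucleotide reductase whose level follows S phase, stood at 159 and 153 CPM against 168 and 195 CPM. Its log2 fold change of -0.22 ± 0.10 (SE) had the smallest p of all 55 genes (unadjusted p = 0.0633, edgeR adjusted p = 0.358). Rrm1, the other subunit, overlapped, with 481 and 448 CPM against 456 and 446 CPM. Slbp, which binds histone messenger RNA, had 139 and 149.7 CPM against 135 and 133 CPM and was the only one of the 5 genes of chromatin, repair and checkpoint in S phase whose groups did not overlap. Ung, which removes uracil from DNA, had 56.8 and 55.2 CPM against 56.1 and 47.9 CPM, and Uhrf1, which guides maintenance of DNA methylation, 187 and 207 against 185 and 199 CPM. The regulators of S phase entry all overlapped. E2f1 had 75.9 and 68.3 CPM against 81.5 and 72.6 CPM, and Ccne2, a cyclin E gene, 51.4 and 60.0 against 48.7 and 57.7 CPM. Ccne1, the other cyclin E gene, had 28.5 and 17.0 CPM against 21.6 and 20 CPM, so that the wild-type pair lay between the other two.

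Of the 7 mitotic cyclins and kinases, 6 had log2 fold changes below 0, as had 7642 of the 14912 tested genes. Those of Ccna2 and Ccnb1 were 0.00 and -0.02 at this precision. Aurkb, the kinase of the chromosomal passenger complex, stood at 159 and 137 CPM against 165 and 182 CPM. Its fitted difference was -0.23 ± 0.10 (log2, SE; edgeR adjusted p = 0.368). Aurka, a spindle pole kinase, had 85 and 81.5 CPM against 87.8 and 99.3 CPM, and both libraries were lower for each of these genes. Plk1, a kinase of mitotic entry, overlapped with 89.4 and 74.6 CPM against 88.8 and 101 CPM. Ccna2, the cyclin of S and G2 phase, was the highest of this role, also per kilobase, with 319 and 297 CPM against 302 and 315 CPM. Cdk1, the kinase that drives mitosis, had 197 and 183 CPM against 184 and 207 CPM, and overlapped as well. Ccnb2 was the only one of the 7 that was higher in both libraries, with 171 and 152 CPM against 147 and 151 CPM.

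Ccnb1, the main mitotic cyclin, had the lowest level per kilobase of this role (a mean of 13.8 CPM per kilobase), with 33.2 and 30.4 CPM against 30.4 and 33.9 CPM. The count table also holds a separate entry for its pseudogene Ccnb1-ps, with 24.5 and 23.0 CPM against 23.3 and 26.7 CPM, 43.3% of the summed level of the pair. Summed, the pair stood at 57.7 and 53.4 CPM against 53.8 and 60.6 CPM, and the groups overlapped. Tyms, the thymidylate synthase gene, has a like entry, Tyms-ps, which held 26.7% of that pair's level. The sums of that pair were 113 and 103 CPM against 105 and 106 CPM. Reads that match both copies cannot be assigned with certainty, so the levels of Ccnb1 and Tyms are uncertain. For 13 of the 55 genes, Mcm7, Cdc45 and Aurka among them, the span overlaps another counted gene, and counting by strand is not stated.

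All 5 genes of the spindle checkpoint and the anaphase-promoting complex had log2 fold changes below 0, from -0.14 to -0.04. In all 5, labelled Hhex-deleted replicate 1 lay above replicate 2, and 7642 of the 14912 tested genes were also below 0. Cdc20, an activator of that complex, had 131 and 118 CPM against 134 and 137 CPM, and Ube2c, its ubiquitin-conjugating enzyme, had 120.3 and 100.4 against 115 and 127 CPM. Bub1b, a checkpoint kinase homologue, had 207 and 199.6 CPM against 206 and 211 CPM. Of the 4 kinetochore genes, 3 had log2 fold changes above 0, and Nuf2 had -0.07. Cenpf had 157 and 165 CPM against 141 and 148 CPM, the highest log2 fold change of the list (0.16 ± 0.08 SE, edgeR adjusted p = 0.424), and Ndc80, which binds microtubules, 68.5 and 62.1 against 60.3 and 57.0 CPM. Both were higher in both libraries.

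Cdca8, the borealin subunit of the chromosomal passenger complex, had the most negative log2 fold change, -0.23 ± 0.11 (SE, edgeR adjusted p = 0.415), equal to that of Aurkb at this precision. Its 156 and 126 CPM compared with 166 and 165 CPM in wild-type, so that labelled Hhex-deleted replicate 2 lay farther below than replicate 1. Birc5, which encodes survivin of the same complex, had 124 and 104 CPM against 119 and 119 CPM. Among the spindle and cytokinesis genes, Anln, an actin-binding protein of the cleavage furrow, had 99.0 and 106 CPM against 105 and 129 CPM. Kif23, a motor of the central spindle, had 166 and 157 CPM against 152 and 141 CPM. Kif11, the motor that parts the spindle poles, had 271 and 257 CPM against 275 and 280 CPM. Kif23 was thus higher and Kif11 lower in both libraries, while Anln overlapped. Of the other 5 genes of this role, Nusap1 and Ckap2l were higher in both libraries, by 0.10 and 0.06 on the log2 scale. Hmmr, Kif20a and Tpx2 overlapped. Mki67, the source of the proliferation marker Ki-67, had 968 and 917 CPM against 852 and 876 CPM, and Top2a, the topoisomerase that untangles chromosomes, 907 and 841 against 855 and 883 CPM. Mki67 was higher in both libraries by a log2 fold change of 0.13 ± 0.07 (SE; adjusted p = 0.508, edgeR), and Top2a overlapped.

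The 95% intervals of the fold changes give the bound. For all 55 genes the interval lay inside a 2-fold change in either direction, as it did for 75.5% of all tested genes and for 94.9% of the 8622 tested genes with a mean of at least 20 CPM. For 54 of the 55 it lay inside a 1.5-fold change, against 58.3% and 86.1%. The exception was Ccne1, whose interval reached from a 1.43-fold decrease to a 1.7-fold increase. For the other 54 genes, the lowest bound was a 1.43-fold decrease, for Cdca8, and the highest a 1.29-fold increase, for Ndc80. The interval of Mki67 allowed a decrease of at most 1.04-fold and an increase of at most 1.23-fold, and that of Top2a a decrease of at most 1.13-fold and an increase of at most 1.14-fold. Widened so as to hold for all 55 genes together, intervals stayed inside a 2-fold change for 54, again without Ccne1, which then reached from -1.57 to 1.82 on the log2 scale. With either wild-type library left out, the Ccne1 interval also passed a 2-fold increase, and the other 54 stayed inside. The 1.5-fold bound held for 51 and 53 of the 55 genes when labelled Hhex-deleted replicate 1 or 2 was left out, and for 49 and 53 when wild-type replicate 1 or 2 was.

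**Figure D3:**
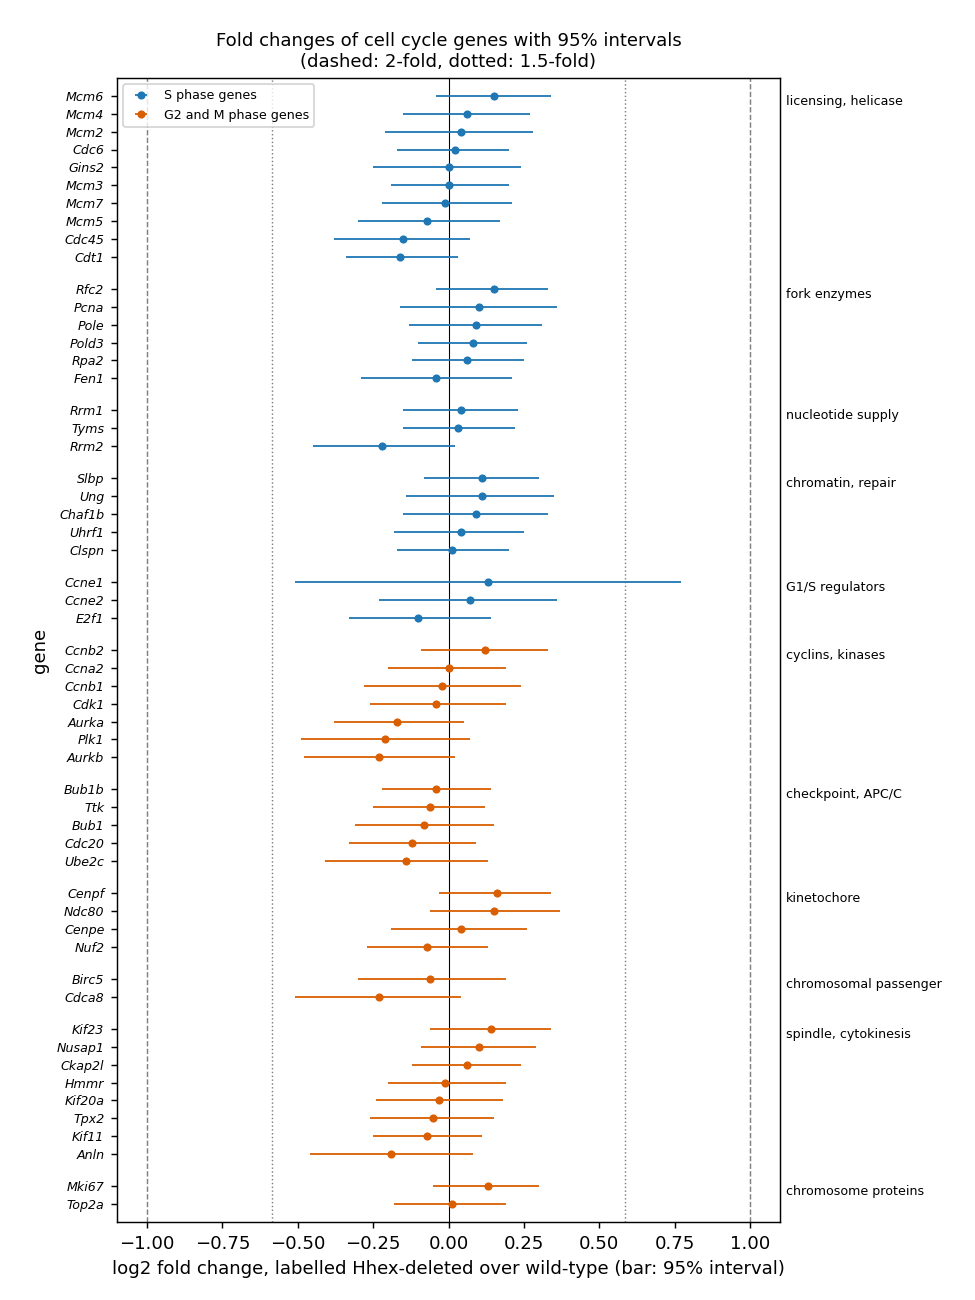
Points give the log2 fold change of each cell cycle gene, libraries labelled Hhex-deleted over wild-type, and bars its 95% interval, with S phase genes in blue and G2 and M phase genes in orange. Every bar crosses 0, all lie inside the dashed lines of a 2-fold change, and Ccne1 alone passes a dotted line of a 1.5-fold change.

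Averaged over the genes of each set, the libraries of the 2 groups overlapped. Relative to the wild-type mean, the S phase genes had a geometric mean of 1.05 and 0.981 with the Hhex-deleted label, where wild-type had 1.01 and 0.986. That of the G2 and M phase genes was 1.02 and 0.938 against 0.976 and 1.02. As mean log2 CPM, S phase genes stood at 7.15 ± 0.07 and 7.13 ± 0.03 (SD, n = 2 each), and G2 and M phase genes at 7.21 ± 0.08 and 7.24 ± 0.05. With 2 libraries a group, an exact permutation test over libraries cannot give a two-sided p below 0.333, so these means are given without a test.

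Gaps between replicates were often wider than the difference between groups. For 43 of the 55 genes, 78.2%, the difference of the group means was smaller than the larger of the 2 gaps between replicates, against 66.7% of the tested genes with a mean of at least 20 CPM. Labelled Hhex-deleted replicate 1 lay above replicate 2 in 47 of the 55 genes, 85.5%, with a median gap of 0.11 on the log2 scale. It did so in 51.1% of all tested genes and in 57.9% of those with a mean of at least 20 CPM. Wild-type replicate 1 lay above replicate 2 in 20 of 27 S phase genes but in 4 of 28 G2 and M phase genes. The shares for that pair were 49.8% of all tested genes and 52.5% of those with a mean of at least 20 CPM. Labelled Hhex-deleted replicate 2, the lowest library for the G2 and M phase genes, also had the lowest sum of granulocyte monocyte progenitor markers given above and the highest sum of 6 stem cell markers, 413 CPM against 266 to 311 CPM in the other libraries. The part of these markers in the gap was not tested.

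**Figure D4:**
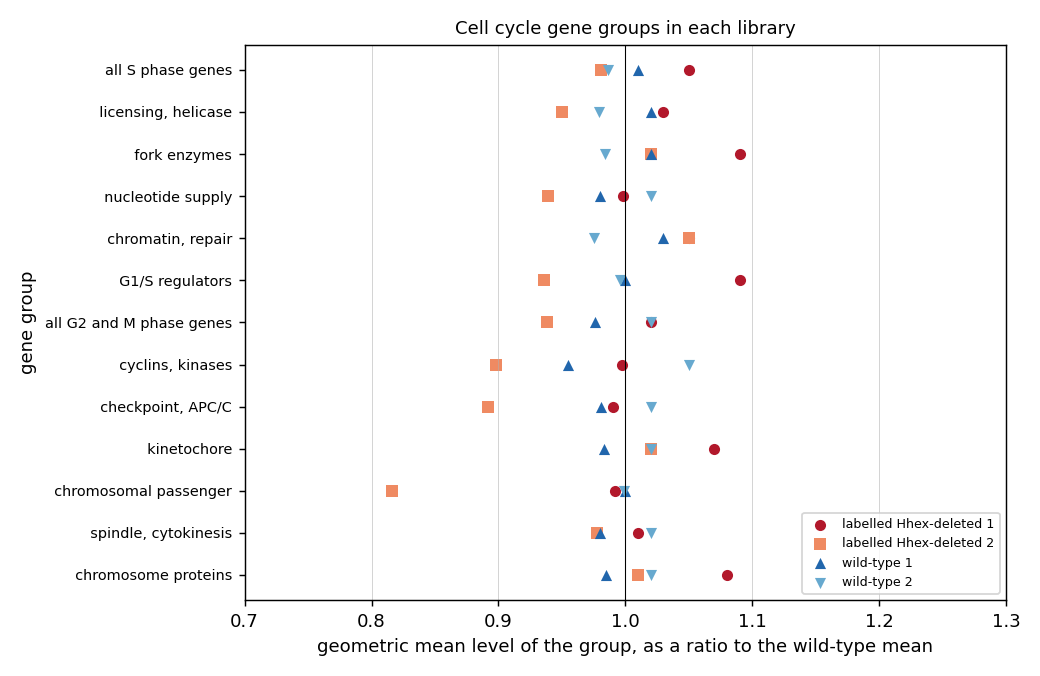
Each row is a group of cell cycle genes and each point the geometric mean level of that group in 1 library, as a ratio to the wild-type mean. The farthest point is labelled Hhex-deleted replicate 2 for the chromosomal passenger genes Birc5 and Cdca8, at 0.816, and in the chromatin and repair row both labelled Hhex-deleted points lie at 1.05, on top of each other.

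Other genes of the same phases, from lists that do not hold the 55, were tested in the same fit. edgeR called 0 of 50 other S phase genes, with 3 at an unadjusted p under 0.05, and 0 of 61 other G2 and M phase genes, with 2. Medians of the log2 fold change were 0.02 and -0.02. Of all tested genes, edgeR called 2.6%, and 15.8% had an unadjusted p under 0.05. Tk1, thymidine kinase, had 76.4 and 68.9 CPM against 84.4 and 86.2 CPM (-0.23 ± 0.08 SE, edgeR adjusted p = 0.241). Cdc25b, the phosphatase that activates mitotic kinases, had 85.8 and 78.7 CPM against 64.7 and 59.8 CPM. Its log2 fold change of 0.40 ± 0.09 (SE) was past the threshold in DESeq2 and not in edgeR (adjusted p = 0.0757). Cenpm, a kinetochore gene, had 23.4 and 21.2 CPM against 28.7 and 28.0 CPM. Among 18 cell cycle transcription factors edgeR, DESeq2 and limma-voom called 0, with 2 at an unadjusted p under 0.05 in edgeR. These were Mybl2, a partner at cell cycle homology regions, with 48.6 and 42.3 CPM against 58.9 and 56.2 CPM, and Myc, with 415 and 415 CPM against 312 and 366 CPM. Of 16 genes of the anaphase-promoting complex and its cofactors, 0 were called by edgeR, DESeq2 or limma-voom and 0 had an unadjusted p under 0.05 in edgeR. Anapc13 had the smallest p, with 38.4 and 35.1 CPM against 42.8 and 39.3 CPM, followed by Anapc15, with 18.4 and 16.3 against 19.3 and 19.3 CPM.

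Upstream of these genes, 2 of 8 cyclin-dependent kinase inhibitors were higher where the label says Hhex-deleted and 1 of 9 genes of the G1 cyclins, their kinases and the retinoblastoma family was lower, by the same edgeR test. Cdkn2a rose from 1 and 2 reads in wild-type to 30 and 27 reads, a ratio of pooled CPM of 17.9 (exact 95% interval 5.83 to 89.5, counting error only, edgeR adjusted p = 0.0239). Its gene-level count does not show which Cdkn2a transcripts rose, so a rise of its product that inhibits cyclin D kinases was not tested. Cdkn2b rose from 1 and 0 reads to 18 and 23, with a ratio of 38.7 (6.56 to 1565, edgeR adjusted p = 0.04). Even then Cdkn2a stood at 0.905 and 0.788 CPM per kilobase, where Ccne1, the lowest of the 55 genes, had a mean of 11.1. Ccnd1, a D-type cyclin, fell to 2.91 and 5.64 CPM from 30.5 and 32.0 CPM in wild-type. Its fitted difference was -2.87 ± 0.32 (log2, SE; edgeR adjusted p = 0.0226).

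The other D-type cyclins did not pass the test. Per kilobase, Ccnd2 stood at 31.7 to 44.4 and Ccnd3 at 75.0 to 84.0 CPM, whereas Ccnd1 reached 8.42 at most. Ccnd2 had 183 and 256 CPM against 210.4 and 226 CPM, and Ccnd3 189 and 179.8 against 169.7 and 190 CPM. Log2 fold changes were -0.05 for Cdk2, -0.04 for Cdk4, -0.05 for Cdk6, 0.17 for Rb1, 0.03 for Rbl1 and 0.07 for Rbl2. The upstream calls rest on few libraries. For Cdkn2a the edgeR adjusted p was above 0.05 when labelled Hhex-deleted replicate 2 (0.0502), wild-type replicate 1 (0.105) or wild-type replicate 2 (0.123) was left out, and was 0.0481 without labelled Hhex-deleted replicate 1. For Cdkn2b it was 0.0579 to 0.199 when any 1 of the 4 libraries was left out, 0.06 with library totals alone and 0.0608 in DESeq2. For Ccnd1 it was 0.0679 with wild-type replicate 1 left out and 0.111 with replicate 2 of that group left out.

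**Figure D5:**
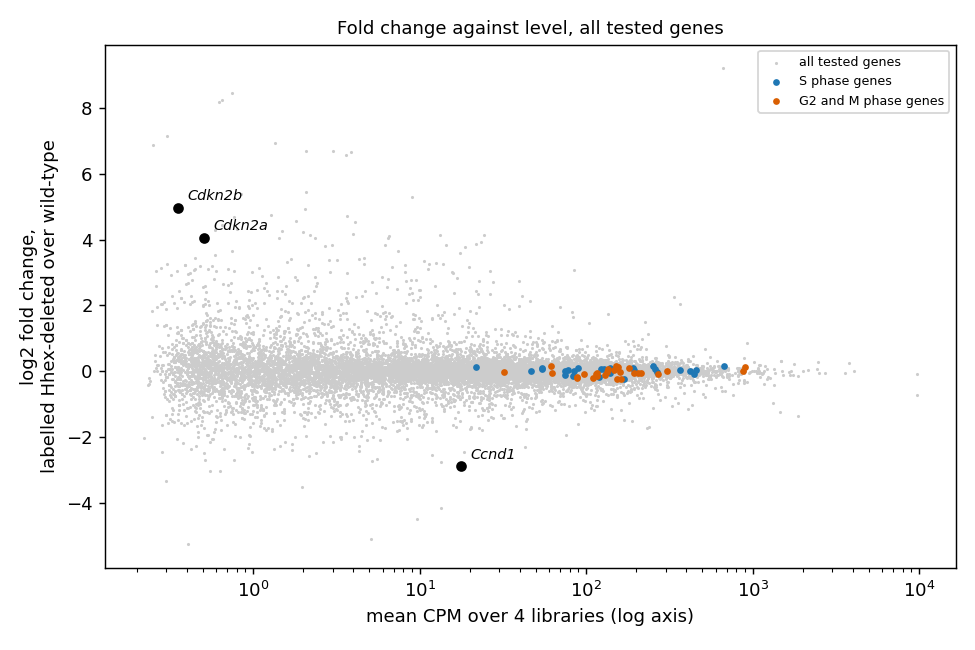
Each grey point is 1 of 14912 tested genes, by its mean CPM over the 4 libraries (log axis) and its log2 fold change, libraries labelled Hhex-deleted over wild-type. The 55 cell cycle genes (blue and orange) lie between -0.23 and 0.16, while Cdkn2a and Cdkn2b stand at 4.06 and 4.97 at low levels, fits that rest on 3 and 1 wild-type reads, and Ccnd1 at -2.87.

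Leaving out labelled Hhex-deleted replicate 1, the library set apart by sex-linked transcripts, left a lone library in that group, so only sizes are given. There, log2 fold changes of the 55 genes ran from -0.40, for Cdca8, to 0.19. With labelled Hhex-deleted replicate 2 left out instead, they ran from -0.23 to 0.46. The median of the G2 and M phase genes was -0.09 without replicate 1 and 0.04 without replicate 2 of that label. It was 0.01 without wild-type replicate 2 and -0.04 in the full fit, so the sign of that median depends on these libraries.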

How the data were processed

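RNA of sorted LSK cells was made into libraries with a TruSeq RNA kit, per the labels' protocols. The authors deposited raw read counts per Entrez gene for 4 libraries, and log2 RPKM values per library. Per the submitters' processing notes, Subread, featureCounts and limma were used with build mm9. The sources used here do not say how strand and multi-mapping reads were handled. Gene length in bases is another deposited column, used to divide CPM by length.

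Counts were fitted over all 14912 genes that passed filterByExpr (minimum count 10, minimum total 15) with edgeR 4.0.16 in R 4.3.3, using TMM factors, group as the only term and a robust quasi-likelihood test, with Benjamini-Hochberg adjustment at 0.05. SE is the log2 fold change divided by the root of F, and the 95% interval uses the t quantile at the fit's degrees of freedom. Fold changes carry a prior count of 0.125. DESeq2 1.42.0, limma 3.58.1 (voom, and log2 RPKM with a trend), other scalings, no filter, a replicate block and each library left out were alternatives. The fits were tested on simulated data. A floor of 3 counts was 0.0995 to 0.109 CPM.

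The genes and lists were chosen with earlier results of these data known. Values in every library are given by rule for the 2 genes of each role with the smallest p, the highest gene of each role, the 3 with the largest fold change and the 3 with the widest interval. Of the related lists the rule names genes past the threshold, otherwise the 2 with the smallest p, and it always names Hhex, Cdkn2a, Cdkn2b and the G1 genes. Values of Cdc45, Pcna, Ccnb1, Ccnb2, Cdk1, Tyms and the pseudogenes were added after the data were seen, as were the 20 CPM background and the widened intervals. Some genes that the rule or the marker lists name are not reported here.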

Additional observations from a re-analysis of the deposited data

How the results depend on the processing

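No alternative called any of the 55 genes at an adjusted p of 0.05, and their log2 fold changes lay between -0.40 and 0.46. Of their single values under the alternatives, 566 moved by less than 1 SD between replicates and 39 by more. With a library left out, the lone sample of a group is assumed to vary like the other group; the median of S phase genes then ran from -0.01 to 0.08 and that of G2 and M phase genes from -0.09 to 0.04. The full fit called 221 genes of the whole table in the higher direction and 167 in the lower. DESeq2 gave 493 and 495, log2 RPKM 114 and 65, and leaving out a library 84 to 366 and 40 to 231. Lower genes numbered 86 with library totals alone and 272 with no filter. Called cyclin-dependent kinase inhibitors numbered 2 in the full fit, 1 with library totals alone or DESeq2, and 0 to 1 with a library left out. With log2 RPKM the number was 1, but Cdkn2b is not among the genes fitted there. The number of called G1 genes was 0 to 1 with a library left out, and 0 without either wild-type library. DESeq2 called 1 other G2 and M phase gene. The widened intervals and the 20 CPM background were chosen after seeing the data. The cause of these shifts was not tested.

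With the replicate number as a block, 0 of the 55 genes and 0 inhibitors were called, and the medians were 0.04 and -0.04 for S and for G2 and M phase genes. The edgeR adjusted p was 0.0524 for Cdkn2a and 0.0764 for Cdkn2b. Deviations of replicate 1 from its group mean correlated at 0.326 between the groups over genes; with only 2 pairs, the samples share a number and no known pairing.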
